A study of Mus musculus with 8 samples.

Results

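A set of 99 genes of 15288 with low read counts under added NaCl was examined in a mouse collecting duct cell line. The genes were chosen by their normalized counts in these same libraries. Each had a mean below 100 over the 4 NaCl libraries, a mean of at least 20 over the 4 controls, a control mean at least 1.8 times the NaCl mean, and its lowest control above its highest NaCl library. Of 110 genes that met these limits, 11 were left out by name, as the rule sets aside Adam12, Atp6v0d2, Eda2r and symbols starting with Slc, Serpin, Gst, Cyp, Kcn or Col. Because the difference between the groups selected the members, their values are given as a description with no test.

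The cells, labelled IMCD, are a mouse kidney line of inner medullary duct cells. Per the labels, they had been cultured in DMEM with serum and antibiotics, and all libraries come from cells then kept for 12 h in DMEM free of serum. The control group (n = 4 libraries, replicates 1 to 4) had no added NaCl, and the NaCl group (n = 4 libraries, replicates 5 to 8) had 100 mmol NaCl, an amount that the labels give without a volume. The labels do not say whether libraries of a group came from separate cultures, so p-values here measure the spread between these libraries, which may be technical.

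The inner medullary collecting duct is the final segment of the renal tubule, where epithelial cells face fluid of high and changing salt content. When salt is added outside, such cells lose water, take up or make organic osmolytes, and change the transcription of many genes. A cell line also makes traces of many transcripts that are better known from immune, liver, muscle or nerve cells. In bulk RNA, fewer cells with a transcript and less of it in each cell cannot be told apart.

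The members were low in both groups. Their median control mean was 58.4 normalized counts and their median NaCl mean 21.3, with a median ratio of 2.32 (log2 ratio of NaCl to control -1.22). Per length, on the TPM scale (counts scaled by exon length and library depth), the median member stood at 1.66 in control and 0.670 in NaCl libraries, whereas the median of all genes was 18.3 and 19.1. Control levels of single members ran from 0.119 to 16.5 TPM. The ratio was under 2 for 20 members, from 2 to under 3 for 53, and at least 3 for 26, of which 13 reached 4. The NaCl mean was under 10 for 13 members, and 2 members had a NaCl library with 0 counts. In both cases that library was NaCl replicate 5, and every member had counts in the other NaCl libraries.

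The libraries were not equal over the members. Summed over the 99 genes, the normalized counts were 8451, 8312, 8677 and 8442 in the controls and 3006, 3395, 3594 and 3648 in the NaCl libraries. NaCl replicate 5, the shallowest library at 35.29 M counts against 41.37 to 47.57 M in the others, was alone the lowest NaCl library for 43 of the 99 members (43.4%), beside 28.2% of all genes and 30.3% of the other 1469 low genes. Without it, 113 genes met the rule, 90 of them among the 99. The log2 ratio of Gpr35, one of the members with a low value in this library, was -0.64 without it and -0.88 with it. Counts were thin, with 29, 15, 16 and 12 members under 10 raw counts in NaCl replicates 5 to 8 and none in the controls. The median coefficient of variation among members was 16.7% in control and 32.2% in NaCl libraries, where counting error alone gives 13.1% and 21.7%.

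For background, every control lay above every NaCl library in 16.1% of the 15288 genes, and the control mean was at least 1.8 times the NaCl mean in 3.17% of them. Both are conditions of the rule, so nothing is read from the members' own share. Of the 14024 genes tested with edgeR (quasi-likelihood F test, Benjamini-Hochberg adjusted p under 0.05), 17.2% were lower with NaCl and 16.9% were higher. These shares are the reference for the genes below that are not members. The 11 genes left out by name count as non-members and among the other low genes, although the same limits fixed their direction.

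**Figure D1:**
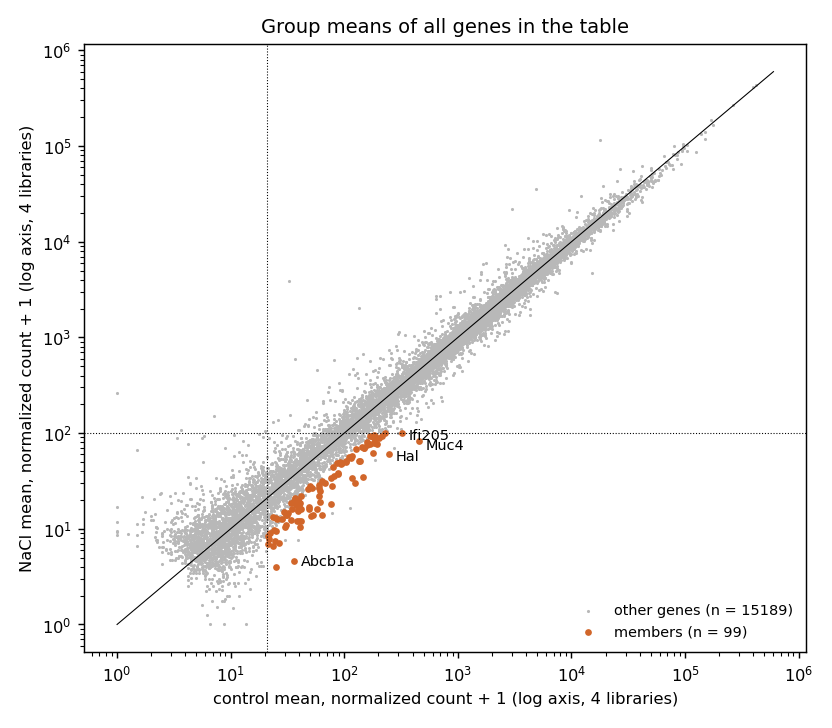
Mean normalized count plus 1 of every gene over the 4 control libraries (x axis) and the 4 NaCl libraries (y axis), both on log axes. The solid line marks equal means and the dotted lines the limits of 20 (control) and 100 (NaCl). The 99 members lie below the line in the low range, with Muc4 farthest to the right at 455 in control and 81.5 in NaCl libraries.

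The limits divide a continuous range. Just inside the ratio limit were Pate14 (ratio 1.802) and Eif1ad7 (1.805), and just outside it were Scnn1g (1.798), a subunit of the epithelial sodium channel, and Ctla2a (1.797). At the control limit, Tmem200b (mean 20.3) was inside and Il2rb (19.8) outside. At the NaCl limit, Ifi205 (mean 99.6) was inside and the ligand gene Wnt11 (100.2) outside. Tmem52b was inside the condition on overlap, with a lowest control of 40.4 against a highest NaCl library of 39.7, and Gm11131 was outside it, with 18.7 against 19.7.

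Of the members, 88 were protein coding and 11 non-coding in the GENCODE M21 annotation. By general knowledge, applied after the values had been seen, 56 members are usually named with a cell type other than the collecting duct, and 43 have no such cell type given here. Genes that are not members were not sorted this way, so the 56 cannot be read as a trait of the members. Sorted by role, 19 belonged to immunity and inflammation, 12 to signalling, 11 to liver proteins and metabolism, 11 to nerve and sensory cells, 8 to matrix, proteases and membrane proteins, 8 to germ line and development, 4 to mucins and glycans, and 4 to muscle. The remaining 11 non-coding genes and 11 coding genes were given no role. The median ratio of a class lay between 2.04 for germ line and development and 3.58 for mucins and glycans, and classes overlapped widely.

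**Figure D2:**
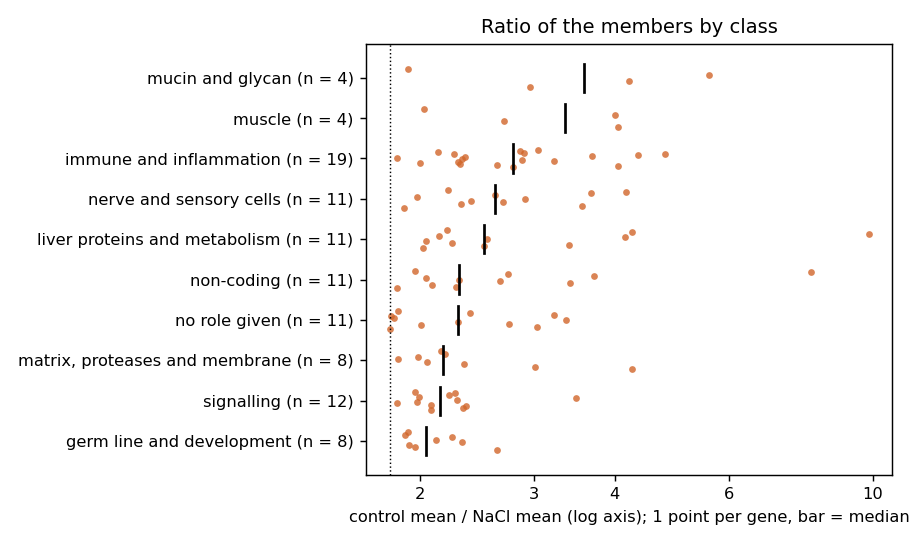
Ratio of the control mean to the NaCl mean (x axis, log scale) for each of the 99 members, grouped by class (y axis, with the number of members). Each point is a gene, the bar is the class median, and the dotted line is the limit of 1.8 that the rule set. Most points of each class lie between 1.8 and 4, and Abcb1a (9.86) and Gm41442 (8.05) lie apart on the right.

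Values of single libraries are given below as normalized counts in the order of replicates 1 to 4 for the controls and 5 to 8 for NaCl. Means are followed by the SD over the 4 libraries of a group, and intervals on ratios are 95% intervals for counting error alone.

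The genes of immunity included a group concerned with presenting antigen. Proteasomes trim proteins to peptides, the peptides are loaded onto MHC class I molecules, and T cells read them together with co-stimulatory molecules. Psmb9, the immunoproteasome subunit, had 188, 159.7, 198 and 202 in the controls and 74.1, 83.6, 98.9 and 74.5 in the NaCl libraries, with means of 187 ± 19.0 and 82.7 ± 11.6 and a ratio of 2.26 (1.97 to 2.57). Of its exon sequence, 5.79% overlaps Tap1 on the opposite strand, a gene with far higher counts (means of 2521 and 1080.5). The strandedness of the counts is not given, so the Psmb9 value may hold reads of Tap1. Cd80, the co-stimulatory ligand of CD28 that antigen-presenting cells display, had 222, 246, 180.4 and 211 in the controls and 78.7, 89.5, 91.8 and 109 in the NaCl libraries, with means of 215 ± 27.01 and 92.3 ± 12.6. Both genes thus kept a wide gap, with the highest NaCl library of Cd80 at 109 and its lowest control at 180.4. The nonclassical MHC class I genes H2-Q6 and H2-Q7 had means of 77.5 and 26.8, and of 40.3 and 10.9. They resemble each other and other MHC genes: 23.6% of the longest H2-Q6 transcript and 12.9% of that of H2-Q7 matched transcripts of other genes, so reads may have been split between them. The 250 bases before the start of each, from the RefSeq promoter table on GRCm38.p6, are shown because both hold matches to the NF-kB motif, known from immune genes. Each line reads 5′ to 3′ on the gene's strand. Capitals here and in later windows mark matches to the AP-1, CRE, interferon response, STAT, E-box, TATA and NF-kB motifs. H2-Q6 lies at chr17:35424600-35424849 (plus strand) and H2-Q7 at chr17:35438905-35439154 (plus strand), with overlapping NF-kB matches at -173 to -164 from the start and at -133 to -124.
H2-Q6: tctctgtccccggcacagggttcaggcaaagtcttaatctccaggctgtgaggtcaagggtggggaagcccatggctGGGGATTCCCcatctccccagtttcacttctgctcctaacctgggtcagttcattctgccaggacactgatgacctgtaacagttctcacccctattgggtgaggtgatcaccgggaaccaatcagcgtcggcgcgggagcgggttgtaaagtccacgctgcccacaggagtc
H2-Q7: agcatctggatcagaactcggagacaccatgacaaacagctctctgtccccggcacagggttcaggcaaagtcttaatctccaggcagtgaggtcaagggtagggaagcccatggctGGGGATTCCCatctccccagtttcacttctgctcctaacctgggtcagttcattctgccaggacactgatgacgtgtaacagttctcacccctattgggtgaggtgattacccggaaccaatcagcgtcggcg

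Genes linked to interferon formed the next group. Ifi205 and Ifi206 belong to the PYHIN family of nucleic acid sensors, and Phf11b and Sp140 encode nuclear proteins best known from leukocytes. Ifi205 had 329, 298, 368 and 287 in the controls and 83.3, 107, 91.8 and 116 in the NaCl libraries, with means of 320.5 ± 36.3 and 99.6 ± 14.8 and a ratio of 3.22 (2.85 to 3.59). Phf11b had 208, 232, 170.3 and 197 in the controls and 90.2, 59.0, 125 and 77.4 in the NaCl libraries, with means of 202 ± 25.4 and 87.9 ± 27.9. The libraries of Ifi205 stood close together within each group, while NaCl replicate 7 of Phf11b stood above the other NaCl libraries. Ifi206 had means of 59.3 and 27.8 and Sp140 of 143 and 71.4. Sp140 is uncertain, because 96.0% of its longest transcript matched stretches of other genes. The windows of Ifi205, at chr1:174031756-174032005 (minus strand), and Phf11b, at chr14:59341331-59341580 (minus strand), are shown for the interferon response motif, which lies at -134 to -125 and at -50 to -41 from the start.
Ifi205: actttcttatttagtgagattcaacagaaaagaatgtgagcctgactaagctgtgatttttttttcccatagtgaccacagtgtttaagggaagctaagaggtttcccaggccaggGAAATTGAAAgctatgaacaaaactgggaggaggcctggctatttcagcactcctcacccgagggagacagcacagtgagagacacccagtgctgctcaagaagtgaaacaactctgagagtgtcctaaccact
Phf11b: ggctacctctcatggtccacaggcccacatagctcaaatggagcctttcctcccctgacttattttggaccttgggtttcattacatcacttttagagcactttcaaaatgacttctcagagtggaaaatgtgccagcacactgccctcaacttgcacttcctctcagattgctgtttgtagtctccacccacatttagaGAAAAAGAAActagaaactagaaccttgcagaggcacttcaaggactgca

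Secreted and acute-phase proteins made up another group. Chil1, a chitinase-like protein of macrophages and neutrophils, had 38.4, 76.9, 37.3 and 95.7 in the controls and 8.10, 13.8, 17.1 and 12.9 in the NaCl libraries, with a ratio of 4.78 (3.45 to 6.45). Its controls fell into a low and a high pair, and all 4 exceeded the highest NaCl library. Lrg1, a glycoprotein of liver and neutrophils, had 69.0, 42.4, 89.7 and 101 in the controls and 10.4, 14.8, 32.3 and 11.9 in the NaCl libraries, a ratio of 4.35 (3.29 to 5.66). NaCl replicate 7 was its highest NaCl library and came near control replicate 2. C4b, a complement component made mainly by liver and macrophages, had 198, 144, 193 and 185 in the controls and 68.3, 73.8, 76.7 and 93.3 in the NaCl libraries, with means of 180.0 ± 24.6 and 78.0 ± 10.8. Its libraries were tight in both groups. Tnfsf11, which encodes the osteoclast-inducing ligand RANKL of osteoblasts and T cells, had 19.2, 26.6, 19.1 and 18.7 in the controls and 11.6, 4.92, 3.03 and 7.94 in the NaCl libraries. That is 87 reads in all controls together and 26 in all NaCl libraries, so its ratio of 3.05 had a wide interval (1.99 to 5.03).

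The other immune members were named by their means in control and NaCl libraries. The mucosal chemokine Cxcl17 had 22.4 and 5.54, and the epithelial cytokine Il36a had 23.1 and 8.78. The B-cell kinase Blk had 24.2 and 8.46, the T- and NK-cell receptor Tigit 79.3 and 42.9, and Olr1, a scavenger receptor for oxidized LDL on endothelium and macrophages, 30.4 and 12.9. Tnip3, an inhibitor of NF-kB signalling, had 32.6 and 11.4, and Tbxas1, the thromboxane synthase of platelets and macrophages, 58.4 and 20.9.

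Genes next to the immune members that were not members themselves could be tested. Within 100000 bases of the 19 members of this class lay 61 such genes that were tested, of which 14 were lower, 18 higher and 29 not called (edgeR, adjusted p under 0.05). Those named here were picked after their values had been seen. Beside Psmb9 on chromosome 17, the peptide transporter gene Tap1 was at 2521 ± 198 and 1080.5 ± 86.5 and was lower with NaCl (log2 fold change -1.22, SE 0.0665, adjusted p = 1.11e-09, edgeR). Psmb8, another immunoproteasome subunit, was at 634 ± 22.2 and 328 ± 38.2 (log2 fold change -0.95, SE 0.0903, adjusted p = 5.19e-07). Tap2, which pairs with Tap1, had a log2 fold change of -0.59 (edgeR adjusted p = 4.91e-06). H2-Q4, beside the H2-Q members, was at 3166 ± 269 and 1769 ± 99.4 (log2 fold change -0.84, SE 0.0590, adjusted p = 2.22e-08). Sp100, a nuclear body protein beside Sp140, was at 1048 ± 77.1 and 489 ± 50.4 (log2 fold change -1.10, SE 0.0827, adjusted p = 3.02e-08), and Phf11d, the paralog of Phf11b, at 2320.0 ± 159 and 1110.5 ± 97.9 (log2 fold change -1.06, SE 0.0666, adjusted p = 5.11e-09). Of the longest Phf11b transcript, 14.3% matched Phf11d. Near Ifi205, the PYHIN genes Ifi211, Ifi203, Ifi202b and Mndal had log2 fold changes of -0.56, -0.73, -0.59 and -0.71, each lower at an adjusted p under 0.05. C4a, beside C4b and similar to it, was at 26.9 ± 10.1 and 25.8 ± 5.45 and was not called (edgeR adjusted p = 0.928). The difference between C4b and C4a was not tested. Other neighbours went the opposite way. Ppt2, a lysosomal thioesterase gene near C4b, was at 3011 ± 178 and 4699 ± 104 and was higher (log2 fold change 0.65, SE 0.0425, adjusted p = 5.91e-09, edgeR). Cab39l, near Phf11b, was at 2454 ± 50.9 and 3436 ± 327 and was higher (log2 fold change 0.49, SE 0.0560, adjusted p = 6.26e-06, edgeR). Adora1, an adenosine receptor gene near Chil1, and Brd2, a chromatin reader gene beside Psmb9, had log2 fold changes of 0.48 and 0.23 (edgeR adjusted p = 0.00175 and 5.18e-05). The 18 higher genes ran from 0.15 to 0.67 in log2 fold change and the 14 lower ones from -1.22 to -0.15. Some neighbours did not pass the test. Beside Psmb9, the MHC class II accessory genes H2-DMa and H2-DMb1 were at 72.1 ± 11.1 and 85.7 ± 30.3 and at 105 ± 21.4 and 139 ± 27.4, and neither was called (edgeR adjusted p = 0.477 and 0.0992). Phf11c and Phf11a, further paralogs of Phf11b, were not called (edgeR adjusted p = 0.389 and 0.587), nor was Sp110 beside Sp140 (0.137). Of the PYHIN genes, Aim2 and Ifi213 had log2 fold changes of -0.41 and -0.46 and were not called (edgeR adjusted p = 0.0668 and 0.387).

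A wider list of 45 antiviral and interferon-induced genes, none of them a member, held 37 genes lower and 2 higher, with a median log2 fold change of -0.38, beside 0.0029 for all genes tested. With the library number fitted as a linear drift from 1 to 8, 15 of the 45 were lower. This drift largely follows the groups, since replicates 1 to 4 are all controls and 5 to 8 all NaCl. Fits with it, here and below, therefore separate drift from NaCl only weakly. Without control replicate 3 or 4, or NaCl replicate 5 or 7, 1 was higher. Zbp1, a nucleic acid sensor of this list, was at 2100.4 ± 124 and 940.4 ± 89.3 (log2 fold change -1.16, SE 0.0676, adjusted p = 1.44e-09, edgeR). Among the genes of cytokines and their receptors, 10 of 28 tested were lower and 3 higher. The epithelial alarmin gene Il33 of this list was at 704 ± 60.2 and 239.8 ± 63.1 (log2 fold change -1.55, SE 0.141, adjusted p = 1.93e-06, edgeR). In the TNF family, without Tnfsf11, 7 of 18 were lower and 1, Tnfsf15, was higher. Leaving out control replicate 3 gave 4 lower, and under the drift 7 were lower and 0 higher. With the number centred, or without NaCl replicate 5, 2 were higher. In the list of complement, coagulation and kinin genes, without C4b and Fga, 9 of 22 were lower and 3 higher, or 10 and 5 with the library number centred within its group. The kininogen gene Kng1 was at 15303 ± 1145 and 4692 ± 577 (log2 fold change -1.70, SE 0.0886, adjusted p = 1.02e-06, edgeR).

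Among liver proteins and metabolic enzymes, the highest ratio of all members belonged to Abcb1a, which encodes the P-glycoprotein pump of the blood-brain barrier and gut. It had 35.8, 23.7, 42.3 and 38.5 in the controls and 2.31, 4.92, 3.03 and 3.97 in the NaCl libraries, from 146 reads in the controls and 14 in NaCl libraries. The ratio was 9.86 (5.61 to 18.2), and the lowest control was 4.81 times the highest NaCl library. Its neighbour and paralog Abcb1b, not a member, had a far higher count at 663 ± 108 and 424 ± 34.8 and was also lower (log2 fold change -0.64, SE 0.108, adjusted p = 2.35e-04, edgeR). Hal, the liver and epidermis enzyme that converts histidine to urocanate, had 248, 223, 254 and 258 in the controls and 85.6, 58.0, 52.5 and 40.7 in the NaCl libraries, with means of 246 ± 15.9 and 59.2 ± 19.0 and a ratio of 4.15 (3.65 to 4.90). Dhrs9, a dehydrogenase that acts on retinol and steroids, had 164, 146, 123 and 144 in the controls and 39.3, 31.5, 37.3 and 27.8 in the NaCl libraries, with means of 144 ± 16.8 and 34.0 ± 5.30. The gap between the groups was wide for both enzymes. The windows of Dhrs9, at chr2:69380212-69380461 (plus strand), and of the immune member Olr1, at chr6:129507166-129507415 (minus strand), are shown for the AP-1 motif, at -18 to -12 and at -60 to -54. Dhrs9 also holds overlapping TATA matches.
Dhrs9: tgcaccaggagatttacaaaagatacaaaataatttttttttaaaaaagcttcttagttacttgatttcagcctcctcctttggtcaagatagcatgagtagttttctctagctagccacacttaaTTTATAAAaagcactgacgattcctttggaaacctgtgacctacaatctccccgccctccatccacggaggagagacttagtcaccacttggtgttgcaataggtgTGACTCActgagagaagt
Olr1: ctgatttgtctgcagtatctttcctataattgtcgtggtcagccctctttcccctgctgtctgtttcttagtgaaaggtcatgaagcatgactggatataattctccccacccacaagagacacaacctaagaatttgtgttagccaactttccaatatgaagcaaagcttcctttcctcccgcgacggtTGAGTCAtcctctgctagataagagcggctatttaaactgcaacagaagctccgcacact

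Conjugation enzymes were also among the members. Ugt1a7c, a UDP-glucuronosyltransferase of liver and gut, had 194, 183, 198 and 200.3 in the controls and 54.4, 75.7, 91.8 and 83.4 in the NaCl libraries, with means of 194 ± 7.39 and 76.3 ± 16.03. Genes of the Ugt1a locus share their last exons, and 69.8% of the Ugt1a7c transcript matched Ugt1a6b, so the value may hold reads of several of them. Ugt1a6b itself was at 18.3 ± 6.60 and 3.05 ± 2.62 (log2 fold change -2.52, SE 0.559, adjusted p = 0.00222, edgeR). Ugt2b34, another transferase of liver, had means of 60.6 and 17.8. Its ratio was 3.39, and 5.67 without NaCl replicate 7.

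Plasma proteins and other enzymes completed the class. Fga, the fibrinogen alpha chain made by hepatocytes, had 32.3, 43.4, 35.3 and 36.5 in the controls and 16.2, 12.8, 18.2 and 19.9 in the NaCl libraries, with means of 36.9 ± 4.69 and 16.7 ± 3.03. Gc, the vitamin D-binding protein of hepatocytes, had means of 59.8 and 23.8. Ogdhl, a 2-oxoglutarate dehydrogenase-like enzyme of brain, had 150.2, 171, 234 and 194 in the controls and 106, 75.7, 96.8 and 91.3 in the NaCl libraries, with means of 187 ± 35.9 and 92.6 ± 12.9. Both Fga and Ogdhl had NaCl libraries within a narrow range. The intestinal RNA-editing enzyme Apobec1 had means of 157 and 73.2, and Gfpt2, which catalyses entry into hexosamine synthesis, 117 and 57.1. Dio3, the deiodinase that inactivates thyroid hormone in placenta and fetal tissue, had 39.5 and 17.6.

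Mucin and glycan genes were few but included the member with the highest control mean. Muc4, a large membrane mucin of mucosal epithelia, had 402, 418, 541 and 459.7 in the controls and 59.0, 80.7, 102 and 84.4 in the NaCl libraries. Its means were 455 ± 62.4 and 81.5 ± 17.6, a ratio of 5.59 (4.89 to 6.22), and its lowest control was 3.94 times its highest NaCl library. At 3.30 TPM in control libraries it was nevertheless below the median of all genes per length, its exons together being 11757 bases long. B4galnt2, the intestinal transferase of the Sd(a) glycan, had 38.4, 36.5, 36.3 and 46.4 in the controls and 4.63, 12.8, 13.1 and 6.95 in the NaCl libraries, a ratio of 4.204 (2.88 to 6.07). Here too no NaCl library came near a control. Cmah, which makes N-glycolylneuraminic acid, had means of 29.7 and 10.1, and B3gnt8, an enzyme of polylactosamine chains, 35.3 and 18.4. Muc20, next to Muc4, was at 84.3 ± 22.4 and 86.0 ± 4.60 and was not called (edgeR adjusted p = 0.935). Muc1, another membrane mucin, was at 1655 ± 168 and 5852 ± 325 and was higher (log2 fold change 1.83, SE 0.0641, adjusted p = 1.68e-10, edgeR). It was the single higher gene among the 5 tested genes of the secretory epithelial list other than Muc4, of which 2 were lower: the chloride channel gene Cftr at 103 ± 15.01 and 63.8 ± 15.1 (log2 fold change -0.69, SE 0.205, adjusted p = 0.0148, edgeR) and the chaperone gene Clu at 31923 ± 1995 and 19931 ± 2401 (log2 fold change -0.68, SE 0.0811, adjusted p = 2.06e-04, edgeR).

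**Figure D3:**
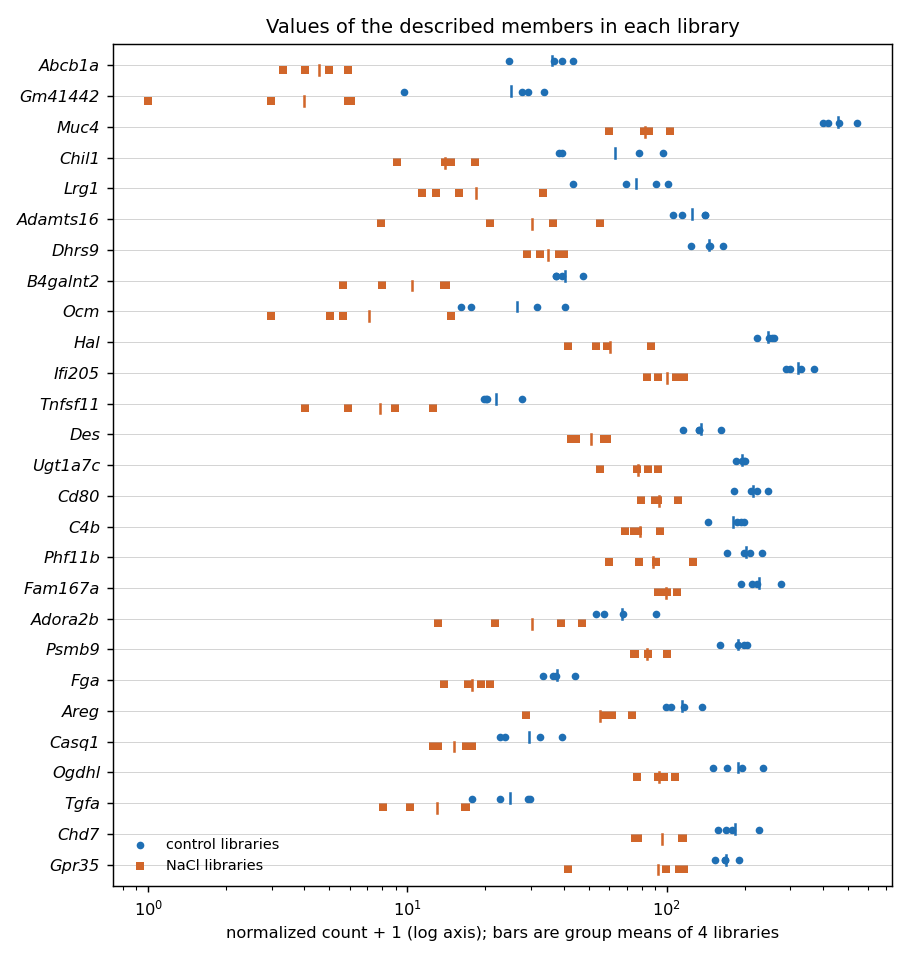
Normalized count plus 1 (x axis, log scale) of 27 members in each of the 4 control libraries (circles) and 4 NaCl libraries (squares), with bars at the group means, ordered by ratio from Gpr35 (bottom) to Abcb1a (top). No circle lies left of a square of the same gene, as the rule requires, and the gap is narrowest for Tgfa, Ocm and Adora2b.

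The signalling members included ligands, receptors and their inhibitors. Areg and Tgfa encode ligands of the EGF receptor. Areg had 115, 136, 98.8 and 103 in the controls and 27.8, 57.0, 60.5 and 72.5 in the NaCl libraries, with means of 113 ± 16.8 and 54.5 ± 19.0 and a ratio of 2.08 (1.74 to 2.41). NaCl replicate 5 was far below the other NaCl libraries. Tgfa had 28.8, 21.7, 28.2 and 16.8 in the controls and 9.26, 15.7, 7.06 and 15.9 in the NaCl libraries, with means of 23.9 ± 5.73 and 12.0 ± 4.51. Its lowest control was 1.06 times its highest NaCl library. Ereg, another ligand of the family beside Areg, was at 94.7 ± 8.28 and 66.3 ± 19.5 and was not called (edgeR adjusted p = 0.0721). Over all 51 growth factor ligands tested that were not members, 19 were lower and 13 higher, and 16 and 8 with the library number as a linear drift. The window of Areg at chr5:91139349-91139598 (plus strand) holds the CRE at -61 to -54 and a TATA match at -31 to -26.
Areg: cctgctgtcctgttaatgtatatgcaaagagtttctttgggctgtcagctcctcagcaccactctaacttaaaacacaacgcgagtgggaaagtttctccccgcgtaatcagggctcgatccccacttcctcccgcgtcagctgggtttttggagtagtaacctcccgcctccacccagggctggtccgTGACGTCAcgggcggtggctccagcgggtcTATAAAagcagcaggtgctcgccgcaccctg

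Of the receptors, Adora2b, the low-affinity adenosine receptor, had 89.9, 67.1, 56.4 and 52.3 in the controls and 38.2, 46.2, 12.1 and 20.8 in the NaCl libraries. Its libraries were scattered in both groups, and the lowest control was 1.13 times the highest NaCl library. Gpr35, an orphan-class receptor of gut and leukocytes, had 167, 153, 166 and 189 in the controls and 40.5, 98.4, 111 and 116 in the NaCl libraries, with means of 169 ± 15.2 and 91.5 ± 34.8. NaCl replicate 5 was again the lowest, at less than any other library by a wide margin. Agtr2, the type 2 angiotensin receptor of fetal mesenchyme, had means of 167 and 75.2, and Pla2r1, the phospholipase A2 receptor of podocytes, 86.8 and 36.8. Of 48 other G protein-coupled receptors tested, 7 were lower and 12 higher, and 9 and 7 with the library number as a linear drift.

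Regulators inside the cell formed the rest of the class. Rgs16, which shortens G protein signals, had means of 116 and 33.3, a ratio of 3.48, and the G protein subunit Gng2 had 38.3 and 16.4. Sfrp2, a secreted modulator of WNT signalling from mesenchyme, had 75.3 and 33.0. The MAP kinase phosphatase Dusp9, known from placenta, had 178 and 89.8, the kinase gene Hunk 104 and 49.8, and Nrarp, a feedback inhibitor of Notch, 94.6 and 48.2. The Nrarp value is uncertain, since 79.4% of its exon sequence overlaps a gene on the opposite strand and the strandedness of the counts is not given in the sources used here.

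Muscle was represented by 4 members. Des encodes the intermediate filament of muscle and had 132, 161, 132 and 114 in the controls and 41.7, 58.0, 56.5 and 43.7 in the NaCl libraries, with means of 135 ± 19.2 and 49.96 ± 8.49 and a ratio of 2.70 (2.27 to 3.17). Casq1, the calcium store protein of skeletal muscle, had 22.7, 21.7, 38.3 and 31.6 in the controls and 11.6, 16.7, 12.1 and 15.9 in the NaCl libraries. The groups were well apart for Des, and the lowest control of Casq1 was 1.30 times its highest NaCl library. Cdh15, the cadherin of muscle precursors, had means of 52.1 and 12.9. The muscle regulators Myog and Myod1 and the contractile genes Ttn, Ckm and Actc1 were not among the 15288 genes. Of the 4 other muscle markers tested, 1 was lower and 1 higher.

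Nerve and sensory genes made up 11 members, all at low levels (class median 0.960 TPM in control libraries). Ocm, a calcium-binding protein of cochlear outer hair cells, had 16.6, 39.4, 15.1 and 30.6 in the controls and 4.63, 13.8, 4.04 and 1.99 in the NaCl libraries. NaCl replicate 6 came within reach of control replicates 1 and 3, and the other NaCl libraries were near the bottom of the range. Without that library its log2 ratio was -2.84, against -2.06 with it. Hair cells were named for 2 further members: Cdh23, part of the tip link, with means of 23.6 and 6.42, and Ripor2, a regulator of RhoA, with 177 and 60.7. Cdhr1, a photoreceptor cadherin, had 86.8 and 36.2. P2rx3, the ATP-gated channel of sensory neurons, had 38.0 and 19.2, the neuronal protease Prss12 37.6 and 17.0, and the membrane protein Ano3 27.04 and 11.7. Snap91, which assembles clathrin at synapses, had 21.1 and 8.06, and the phosphodiesterase of striatum Pde1b 39.3 and 11.04. The brain genes Ak5, an adenylate kinase, and Diras2, a small GTPase, had 38.3 and 14.3, and 47.3 and 25.1. Of the 16 neuron markers listed, 10 were not among the 15288 genes, and of the 6 tested, 1 was lower (adjusted p under 0.05, edgeR).

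The 8 matrix, protease and membrane members were led by Adamts16, a secreted metalloprotease, with 105, 113, 139 and 139 in the controls and 6.94, 35.4, 54.5 and 19.9 in the NaCl libraries. Its means were 124 ± 17.7 and 29.2 ± 20.5 and its ratio 4.25 (3.37 to 5.09). The NaCl libraries spread widely, with replicate 5 lowest, while the controls did not. The membrane protease Adam19 had means of 80.5 and 34.4, the stromal protein Islr 149 and 68.2, and Gjb2, the connexin 26 gene of cochlear support cells and epidermis, 149.5 and 69.3. Capn6, a calpain of placenta and embryonic muscle, had 109 and 54.8, Sytl1, which acts in vesicle transport, 38.2 and 18.6, and the microfibril gene Fbn2 89.9 and 48.7. Fxyd3, a regulator of the sodium pump, had 47.5 and 15.8, with 42.5% of its exon sequence overlapping Lgi4 on the opposite strand. Fxyd5, of the same family and nearby, was at 209 ± 13.7 and 104 ± 13.05 and was lower (log2 fold change -1.01, SE 0.138, adjusted p = 2.74e-05, edgeR).

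Germ line and developmental genes had the lowest class median ratio. Chd7, a chromatin remodeller active in many tissues, had 226, 177, 156 and 168 in the controls and 76.4, 114, 74.6 and 113 in the NaCl libraries, with means of 182 ± 30.7 and 94.6 ± 22.03. Its NaCl libraries formed a low and a high pair, all under the lowest control. The germ cell gene Nanos3 had means of 38.4 and 14.6, Tmem95, a sperm protein needed for fertilization, 103 and 48.5, and Cfap91, a protein of sperm tails and cilia, 59.4 and 25.5. Hsf2bp, which acts in meiotic recombination, had 40.7 and 21.3. The transcription factor genes Osr2, of palate and limb mesenchyme, and Mycl, of the MYC family, had 33.0 and 17.4, and 34.0 and 15.1. Ripply1, a repressor in somites, had 51.0 and 25.9.

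The non-coding members had control means between 20.5 and 158. Gm41442 had the second-highest ratio of all, with 8.73, 26.6, 28.2 and 32.6 in the controls and 0, 4.92, 5.04 and 1.99 in the NaCl libraries. Control replicate 1, at 8.73, was far under the other controls, and the ratio of 8.05 rested on 98 reads against 12 (4.16 to 15.2). Has2os, antisense to the hyaluronan synthase gene Has2, had means of 31.0 and 13.6, and Dio3os, beside Dio3, had 40.7 and 15.3. Has2 was at 1084 ± 133 and 449 ± 96.0 and was lower (log2 fold change -1.26, SE 0.136, adjusted p = 2.99e-05, edgeR). The exons of Has2os overlap Has2 over 11.2% of their length, so reads of that stretch cannot be assigned without strand.

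Among members given no role, Fam167a had the highest control mean, with 212, 222, 275 and 193 in the controls and 94.9, 99.3, 91.8 and 108 in the NaCl libraries and means of 226 ± 35.1 and 98.6 ± 7.14. Its NaCl libraries lay within a narrow range far under the controls. The others had control means from 20.3 to 125, among them Rhbdl3 (125 and 67.6), Mfsd4b5 (92.9 and 46.2), Thsd7b (48.2 and 14.96), Ankrd55 (37.1 and 11.03), Rflna (29.0 and 9.54), Tmem52b (49.1 and 26.9) and Tmem200b (20.3 and 7.41). Values of 3 members at low ratios or low levels are uncertain or near the limit. Lrrc14b (39.0 and 16.3) lies wholly within exons of Ccdc127 on the opposite strand, which was at 2685 ± 79.4 and 2598 ± 62.9 and was not called (edgeR adjusted p = 0.420). Eif1ad7 (86.1 and 47.7) matched Gm2016 over 96.0% of its transcript. Pate14 (36.1 and 20.1) had the lowest ratio of all members.

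Markers of other cell types were set beside the members. Keratins of collecting duct epithelium were abundant in both groups: Krt7 was at 14098 ± 1509 and 13525 ± 1118, and Krt18 at 9025 ± 1091 and 8538 ± 813. The duct transcription factor Tfcp2l1 was at 5434 ± 569 and 4182 ± 135 and was lower (log2 fold change -0.38, SE 0.0603, adjusted p = 3.47e-04, edgeR). The water channel gene Aqp2, which defines principal cells in the kidney, was near the bottom of the range at 1.002 ± 1.43 and 12.7 ± 3.27. Of 11 tested genes of the principal cell list, 3 were lower and 2 higher. Avpr2, the vasopressin receptor, was at 4.50 ± 5.10 and 26.9 ± 14.9 and was higher (log2 fold change 2.595, SE 0.661, adjusted p = 0.00685, edgeR), as was the epithelial cadherin gene Cdh1 at 8.14 ± 4.84 and 22.2 ± 7.03 (log2 fold change 1.43, SE 0.468, adjusted p = 0.0254, edgeR). Gata3, a transcription factor of the duct, was at 338 ± 34.0 and 248 ± 15.1 and was lower (log2 fold change -0.44, SE 0.104, adjusted p = 0.00341, edgeR). The sodium channel gene Scnn1b at 10.2 ± 3.48 and 3.01 ± 2.38 and the water channel gene Aqp3 at 13.3 ± 10.1 and 6.12 ± 4.04 were below the filter of the test. These genes were picked for naming after their values had been seen. The 14 principal cell genes with values summed to between 30176 and 38171 in controls and between 28994 and 34068 in NaCl libraries. The 14 fibroblast and stromal genes with values summed higher, to between 257940 and 288800 and between 200620 and 231530. Of 12 tested, 5 were lower and 2 higher. The 11 smooth muscle and pericyte genes summed to between 23150 and 27198 and between 29569 and 33098. Of 9 tested, 1 was lower and 3 higher. Defining markers of blood cells were mostly without a value: 13 of 16 lymphocyte markers and 12 of 18 myeloid markers were not among the 15288 genes. The 3 lymphocyte markers in the table summed to between 238 and 292 normalized counts in controls and between 175 and 207 in NaCl libraries. Both that could be tested were lower: Lck, a T-cell kinase, at 238 ± 32.2 and 170.0 ± 15.8 (log2 fold change -0.48, SE 0.129, adjusted p = 0.00772, edgeR) and Il2rb, an interleukin receptor subunit, at 19.8 ± 3.66 and 8.85 ± 4.08 (log2 fold change -1.16, SE 0.421, adjusted p = 0.0422, edgeR). The 6 myeloid markers summed to between 2948 and 3744 and between 3589 and 4174, and 2 of the 6, Ptprc (log2 fold change 1.73, SE 0.0941, adjusted p = 5.91e-10, edgeR) and Fcer1g (log2 fold change 1.26, SE 0.458, adjusted p = 0.0429, edgeR), were higher. The 7 muscle markers in the table other than Des and Casq1 summed to between 507 and 663 and between 314 and 470, and all 9 to between 653 and 834 and between 367 and 529. Most of the first sum was 1 gene, Tnnt2, a cardiac troponin, at 526 ± 63.3 and 309.8 ± 76.9 and lower (log2 fold change -0.76, SE 0.152, adjusted p = 0.00195, edgeR). The other 6 had means of 2.95 to 30.5 in either group, and of these Actn2, a sarcomere actinin, was higher at 4.24 ± 2.65 and 17.3 ± 2.43 (log2 fold change 1.98, SE 0.491, adjusted p = 0.00487, edgeR). Whether traces of other cells took part in the members' values was not tested. Over all 15 cell type lists, 3 of the 116 genes in the table were members, and of the other 91 tested, 23 (25.3%) were lower and 14 (15.4%) higher. The 23 include the intercalated cell marker Atp6v0d2, left out of the members by name only, at 76.7 ± 13.4 and 13.6 ± 4.68. Over the 8 lists of gene classes, 7 of 332 were members, and of the other 310 tested, 106 (34.2%) were lower and 71 (22.9%) higher, and with the library number as a linear drift 94 and 45. The 2 class lists without a member and with more higher than lower genes were axon guidance, with 18 of 48 higher and 8 lower, and cell adhesion, with 19 of 52 higher and 9 lower. Under a linear drift of the library number, which largely follows the groups, the order was not kept. Axon guidance then held 10 higher and 13 lower genes, and cell adhesion 14 higher and 17 lower. Without control replicate 3, axon guidance held 5 lower genes. Vcam1, an adhesion molecule of inflamed endothelium and tubules, stood among the lower ones at 429 ± 53.4 and 130.4 ± 26.9 (log2 fold change -1.71, SE 0.142, adjusted p = 9.20e-08, edgeR).

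Position in the genome was not part of the rule. The 99 members included 5 pairs with less than 100000 bases between them, so 10 members (10.1%) had another member that near, whereas 2.14% of all table genes and 2.25% of the other low genes had a member that near. On chromosome 14, Blk and Fam167a lie 19356 bases apart and point away from each other. On chromosome 6, Olr1 and Tmem52b are 5389 bases apart, and on chromosome 12, Dio3os and Dio3 are 895 bases apart, both pairs likewise divergent. H2-Q6 and H2-Q7 lie 9099 bases apart on the same strand of chromosome 17. In the same windows around members, 294 genes that were not members were tested, of which 71 (24.1%) were lower and 53 (18.03%) higher, with a median log2 fold change of -0.02. With the library number as a linear drift, 54 were lower and 25 higher. Among the next gene on either side, 48 of 173 (27.7%) were lower and 28 (16.2%) higher, with a median of -0.06.

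**Figure D4:**
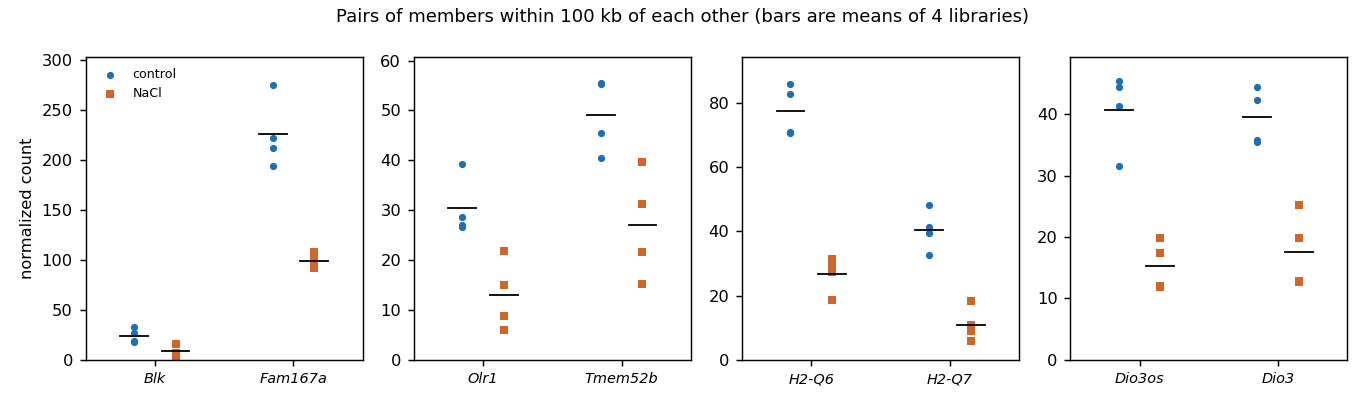
Normalized counts (y axis, from 0, a separate scale in each panel) of 4 of the 5 pairs of members that lie within 100 kb of each other, for the 4 control libraries (circles) and 4 NaCl libraries (squares), with bars at the group means. Within a pair the levels can differ widely, as for Blk at 24.2 and Fam167a at 226 in control libraries.

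Promoter sequence was also outside the rule. Windows of 250 bases before the start, from RefSeq on GRCm38.p6, were found for 77 of the 99 members, 927 of the other low genes and 11489 table genes in all. The RefSeq start of a window need not be the GENCODE start of the gene used for coordinates: 11 of the 77 members' windows (14.3%) lay more than 1000 bases from it, up to 92986 bases for Abcb1a, as did 11.2% and 9.505% in the other sets. Every window printed above started within 55 bases of it. The windows of members were poorer in CpG: the observed over expected CpG ratio had a median of 0.340, beside 0.566 in the other low genes and 0.718 in all genes, and was under 0.5 in 67.5%, 44.0% and 26.1% of them. Over windows within 1000 bases of the GENCODE start these shares were 63.6%, 42.04% and 23.8%. Among protein-coding genes alone the shares were 67.6%, 48.3% and 24.7%. GC content had medians of 54.4%, 58.0% and 59.6%. Such promoters, poor in CpG, are known from genes with expression restricted to certain tissues.

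Motifs were counted on either strand, and matches may overlap. The AP-1 motif (TGACTCA or its complement TGAGTCA) was in 10.4% of the members' windows, 3.78% of the other low genes and 3.29% of all genes. The TATA motif (TATAAA) was in 18.2%, 8.74% and 6.85%. On the gene's own strand and between 40 and 20 bases before the start, where a TATA box usually lies, it was in 6.49%, 2.37% and 1.31%. The interferon response motif was in 6.49%, 2.05% and 2.602%, the NF-kB motif in 15.6%, 9.39% and 10.1%, and the core letters of the NFAT5 site (TGGAAA) in 19.5%, 14.9% and 15.1%. NFAT5 is the transcription factor known for the response to hypertonicity. The GC box (GGGCGG) was in 36.4%, 49.2% and 58.2%. The TEAD motif (GGAATG) was in 14.3%, 12.3% and 10.9%, the E-box (CACGTG) in 6.49%, 6.69% and 8.23%, the STAT motif in 3.90%, 6.47% and 5.81%, and the CRE (TGACGTCA) in 1.30%, 2.70% and 2.70%. Over windows within 1000 bases of the GENCODE start, AP-1 was in 10.6%, 3.52% and 3.26%, and NF-kB in 15.2%, 9.96% and 10.2%. These are counts of letters in short windows with 1 to 28 members each. The sets were not matched for base composition, and the members' windows were poorer in GC and CpG.

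**Figure D5:**
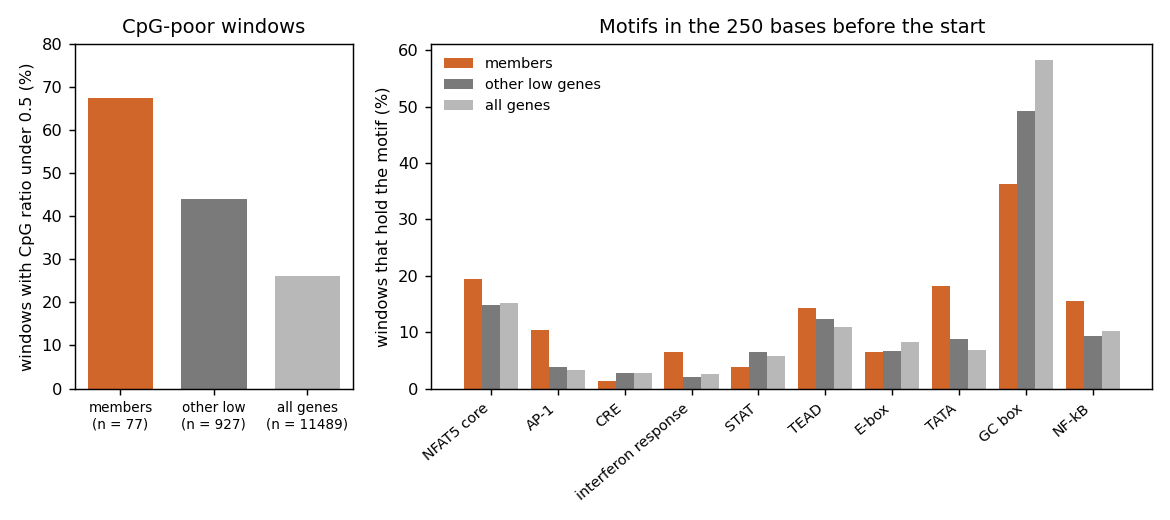
Left, share of promoter windows with a CpG ratio under 0.5 (y axis, percent) for members, other low genes and all genes. Right, share of windows that hold each of 10 motifs (y axis, percent) for the same 3 sets, with AP-1 in 10.4% of members' windows against 3.29% of all.

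The windows printed above hold these motifs, and the CRE of Areg was the single CRE match among the members. Besides Olr1 and Dhrs9, AP-1 was found for Adam19, Capn6, Gfpt2, Gm6093, Ripply1 and Pate14, whose window lay 4774 bases from the GENCODE start, and besides Ifi205 and Phf11b the interferon response motif for Capn6, Cfap91 and Ifi206. A TATA match between -36 and -23 from the start was found on either strand for Muc4, Hal, Tnfsf11, Dio3, Lrrc14b and Gm6093 besides Areg. NF-kB matches were present for Chil1, Des, Adam19 and Ripor2 among others, and for Tnip3 in a window 65085 bases from its GENCODE start. The letters say nothing of binding, which was not measured in these libraries.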

How the data were processed

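Bulk RNA sequencing of 8 libraries was analysed from 2 tables. The raw table deposited by the authors holds whole-number counts for each Ensembl identifier. The normalized table deposited by the authors holds a signal: each count was divided by 1 factor for its library (0.864 to 1.15, checked on the file). Both list the same 15288 genes. The submitters' processing notes name Trim Galore 0.6.7, STAR, DESeq2 1.34.0 and the build mm10, and the counting program and strandedness are not given in the sources used here. No gene had fewer than 19 counts over all libraries. Library totals were 35.29 to 47.57 M counts.

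The members came from the normalized table by the rule stated in the report. The members and all gene lists were chosen with earlier results of these data known, and the classes of members were assigned after their values had been seen. Muc4 had no symbol in the normalized table and was named by its identifier. TPM used exon lengths from GENCODE M21, which covers 15274 of the genes. Genes that are not members were tested on raw counts with edgeR 4.0.16 in R 4.3.3 (TMM, filterByExpr at a minimum count of 10, robust quasi-likelihood F test, Benjamini-Hochberg adjustment over 14024 genes, called under 0.05). The code was tested on simulated data, where false calls were more common than this limit implies. The SE of a log2 fold change is its size divided by the square root of F. Shared transcript sequence was found with blastn 2.17.0 (at least 75 bases at 98% identity). The windows around members, the position of TATA matches, the limit on the distance between RefSeq and GENCODE starts and the ratios of other members without a library were added after the data were seen.

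Values in all libraries are given for the 10 members with the highest control mean, the 10 with the highest ratio, and members on a cell type or gene class list, and other members by their means. A member and the pair it belongs to are counted but not reported here. In each list, the called gene that is not a member and has the largest absolute log2 fold change could be named, and genes beside members and further genes of the lists were picked after their values were seen. Alternatives were other normalizations (median-of-ratios size factors, library totals, TMM-scaled values), other expression filters, DESeq2 1.42.0, the library number as a covariate, other limits of the rule, a pseudocount of 1, group medians, and leaving out each library. Ratio intervals cover counting error only, as PCR copies are not independent molecules.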

Additional observations from a re-analysis of the deposited data

Results flagged for a closer look

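In each group of 4 libraries, the highest or lowest value was compared with its nearest neighbour relative to the range of the group (Dixon's test), for the 27 members with values in all libraries and for other measures of the libraries. Of 58 groups examined, 3 held a value that stood apart, and about 2.9 would by chance, since chance gives about 1 in 20. Tnfsf11 was at 26.6 in control replicate 2, above the other controls at 18.7 to 19.2. Total counts were 47.57 M in control replicate 1, above the 41.77 to 42.73 M of the other controls. NaCl replicate 5 had 35.29 M, below the 41.37 to 42.39 M of the other NaCl libraries.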

How the results depend on the processing

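The number of members was 53 with a control mean of at least 50, from 75 to 146 under the other limits and scales, and from 106 to 121 without a library, with 87 to 95 of the 99 kept. Called genes numbered from 3382 (drift) to 6030 (library number centred in its group). With a linear drift from library 1 to 8, higher genes were 45 over all class lists, 0 in the TNF family, 8 among growth factors, 7 among G protein-coupled receptors, 10 in axon guidance (18 of 48 in the main fit) and 25 near members. Under drift, lower genes were 13 in axon guidance (8 in the main fit), 17 among adhesion molecules (9 of 52 in the main fit) and 15 among antiviral genes. With the number centred, higher genes were 2 in the TNF family and 5 of 22 complement, coagulation and kinin genes (3 in the main fit). Without a library, the TNF family held 4 (without control replicate 3) to 8 lower and 1 to 2 (without NaCl replicate 5) higher genes. Axon guidance then held 5 (without control replicate 3) to 9 lower genes, and the antiviral list 1 to 2 higher genes. The linear drift largely follows the groups, as replicates 1 to 4 are controls and 5 to 8 NaCl, so that fit separates drift from NaCl poorly. The cause of these changes was not tested. No paired analysis was possible because the library numbers are unique to each library. Members near 10 counts per library give wide intervals.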
